A study of Homo sapiens with 5 samples.

Results

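The 41 genes described here encode the machinery that copies the genome in S phase: the MCM helicase, its partners, the origin loading factors, the primase and polymerases, the sliding clamp and its loaders, the enzymes that join Okazaki fragments, and the enzymes that supply nucleotides. They were picked by gene name, with earlier results of these data known, and all 41 had at least 1 row in the poly(A) site table. Together they held 97 of the 29996 sites and were 41 of the 12693 genes with a site. RNA 3' ends had been sequenced in H9 human embryonic stem cells, an established line, grown in mTeSR medium with no treatment. The libraries came from 3 clones labelled CFIm25 KO and 2 libraries labelled control KO, which are called control here. NUDT21 encodes CFIm25, an RNA-binding subunit of cleavage factor I that recognises UGUA in pre-mRNA and takes part in the choice of poly(A) site. Per the study, the CFIm25 KO clones kept reduced or shortened CFIm25, each of these lines was derived from a single clone. The study compared them with mock cells given the CRISPR-Cas9 vector without a guide, but the labels do not say whether each control library is such a line. The label CFIm25 KO is used as a name only, and the spread within CFIm25 KO includes differences between clones.

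Replication starts when the origin recognition complex (ORC), CDC6 and CDT1 place the MCM2 to MCM7 ring on DNA in G1 phase. In S phase CDC45 and the GINS complex join the ring to form the active helicase, DNA polymerase alpha and primase lay down primers, polymerases delta and epsilon extend them on the PCNA clamp, and FEN1 and LIG1 trim and seal the fragments. Ribonucleotide reductase (RRM1 and RRM2), thymidylate synthase (TYMS) and thymidine kinase (TK1) supply deoxynucleotides. Many of these genes are transcribed under E2F factors at the G1 to S transition, and embryonic stem cells are known for a short G1 phase and a large share of cells in S phase.

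The guides are shown because they define the edited clones. All 3 matched the coding sequence of NUDT21 exactly once in GRCh37, each followed by an NGG PAM, and NUDT21 lies on the minus strand with the start codon used here at chr16:56485112-56485114. Guide 1 lay at chr16:56485077-56485096 (plus strand), guide 2 at chr16:56485053-56485072 (plus strand) and guide 3 at chr16:56485079-56485098 (minus strand), so that guides 1 and 3 share 18 bases on opposite strands. The sources used here do not say which guide gave which clone. The sequences are written 5' to 3'.
guide 1: cagccggtctgcgagcgatt
guide 2: ccgaactgagtgaccccccg
guide 3: ccaatcgctcgcagaccggc

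E2F motifs were looked up in the promoters because the genes share this control in textbook accounts. RefSeq promoters in GRCh38.p14, running from 250 bases before to 50 bases after each start, were matched by symbol for 37 of the 41 genes (47 promoters). Any of TTTGGCGC, TTTCCCGC, TTTCGCGC and TTTGCCGC, on either strand, was found for 18 of these 37 genes (48.6%), against 3.99% of all 27305 genes with a promoter of the same length. Counted by promoter, the shares were 38.3% of 47 and 3.31% of 35116. The shorter CCAAT motif, on either strand, was found for 22 of 37 replication genes (59.5%), against 39.7% of all genes. A match is a run of letters and not a measured binding site. The E2F letters contain CG, and the sets of promoters were not matched for base content. The shares thus do not show an excess beyond base content. Below, 1 window is shown for each role, 5' to 3' on the gene's strand, with the E2F match in capitals. The windows are MCM6 at chr2:135876506-135876553 (minus), GINS2 at chr16:85688958-85689005 (minus), CDT1 at chr16:88803734-88803781 (plus), POLA2 at chr11:65261889-65261936 (plus), PCNA at chr20:5126654-5126701 (minus), LIG1 at chr19:48170431-48170478 (minus) and TYMS at chr18:657594-657641 (plus).
MCM6: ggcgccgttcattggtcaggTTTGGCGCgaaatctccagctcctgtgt
GINS2: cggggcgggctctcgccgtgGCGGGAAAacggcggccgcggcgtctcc
CDT1: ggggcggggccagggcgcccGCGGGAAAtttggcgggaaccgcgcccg
POLA2: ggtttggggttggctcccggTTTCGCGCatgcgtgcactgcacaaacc
PCNA: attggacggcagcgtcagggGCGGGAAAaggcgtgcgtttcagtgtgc
LIG1: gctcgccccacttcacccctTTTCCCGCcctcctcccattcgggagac
TYMS: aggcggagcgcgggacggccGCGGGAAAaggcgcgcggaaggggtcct

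The libraries held 5684809 to 7783102 reads in CFIm25 KO and 5203908 and 5243225 in control, of which 16871 to 25540 reads in CFIm25 KO and 17492 and 17874 in control ended in replication genes. NUDT21 had 130.5, 128.7 and 133.1 CPM (reads relative to library size after TMM scaling) in CFIm25 KO, against 223.0 and 221.6 in control (log2 fold change -0.77, SE 0.112, edgeR adjusted p = 0.0324). Its tags lie at the 3' end, outside the edited stretch, and so check neither the edit nor the protein. All 12 embryonic stem cell markers had a site, and LIN28A stood apart in control 2 (748.5 CPM, against 2504 in control 1 and 1986 to 2759 in CFIm25 KO). Of the other lineage markers, 4 of 7 fibroblast, 4 of 6 neural, 2 of 7 mesoderm and endoderm and 2 of 4 trophoblast genes had a site. PAX6, SOX1, TBXT, MIXL1, SOX17, FOXA2 and GATA4 had none. THY1 had 59.8 to 184.9 CPM over the CFIm25 KO clones, and 125.9 and 141.3 CPM in control. KDR had 11.5 to 37 CPM over the CFIm25 KO clones, and 32.1 and 31.4 CPM in control. Of the neural markers, SIX3 and OTX2 stood apart in CFIm25 KO clone 2, with 116.2 CPM of SIX3 against 5.90 and 1.21 in the other CFIm25 KO clones and 0.834 and 1.07 in control, and 137.1 CPM of OTX2 against 47.6 and 11.5 in the other CFIm25 KO clones and 27.5 and 23.5 in control. ZIC2 was high in clones 1 and 2 (78.8, 94.8 and 36.0 CPM in CFIm25 KO, 49.2 and 34.2 CPM in control), and NES was similar in the 3 clones (91.0, 91.8 and 98.5 CPM, against 77.1 and 67.9 CPM in control). The 4 neural markers with a site summed to 223.4, 439.9 and 147.1 CPM in CFIm25 KO clones 1 to 3, and to 154.7 and 126.6 CPM in control. The 8 markers of dividing cells summed to 1058, 1146 and 1209 CPM in CFIm25 KO, against 1056 and 1054 CPM in control, and none was called. Their fold changes lay 6 above 0 and 2 below. MKI67 was lower (94.3, 96.1 and 115.2 CPM in CFIm25 KO, 120.5 and 117.0 CPM in control). CENPF was higher (245.3, 283.4 and 268.8 CPM in CFIm25 KO, 215.9 and 199.2 CPM in control).

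At the gene level no replication gene passed the test between the groups. All 41 passed the filter on low counts, and edgeR's quasi-likelihood test called 0 of them at an adjusted p of 0.05, where 0.0591% of the 11841 genes tested were called. An unadjusted p under 0.05 was obtained for 2 of 41, GINS3 (higher) and RRM2 (lower), where 7.13% of all genes had one. DESeq2 also called 0 of the 41, where 0.213% of 12693 genes were called, and gave 0 of them an unadjusted p under 0.05, where 4.04% of all genes had one. The log2 fold changes of CFIm25 KO over control ran from -0.33 (RFC1) to 0.59 (GINS3), and 34 of 41 (82.9%) lay within 0.25 of 0, against 64.1% of all genes. Fold changes are less precise at low counts, and these 2 shares were not matched for level, so they do not show that replication genes are unusually stable. Since these are bulk samples, a different share of cells in S phase and a different RNA level per cell could not be told apart.

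**Figure D1:**
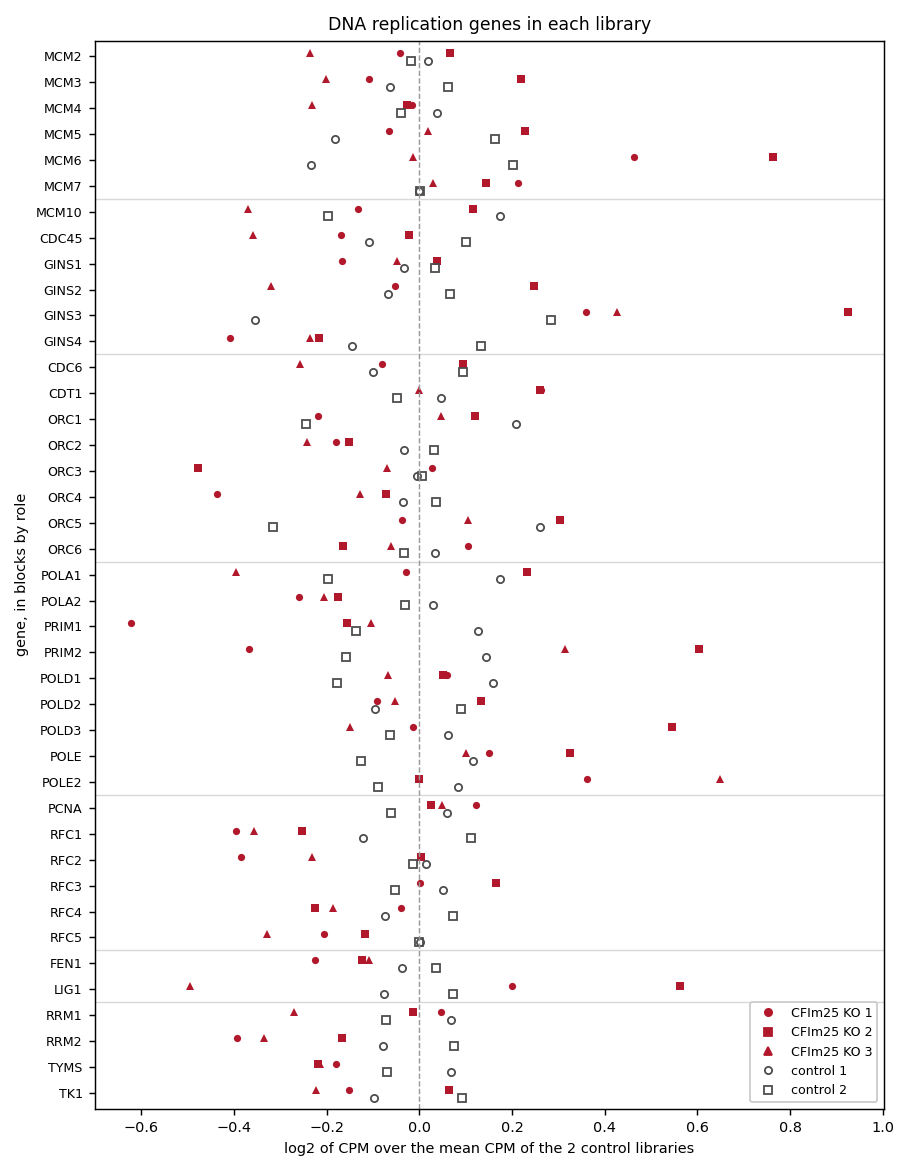
Each row is 1 of the 41 genes, in blocks by role, and the horizontal axis gives log2 of its CPM over the mean of the 2 control libraries. Filled red symbols are the 3 CFIm25 KO clones and open grey symbols the 2 control libraries. In 30 genes the groups overlap, and clone 2 is the highest CFIm25 KO clone in 27.

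The fold change was below 0 for 27 genes and above 0 for 14, with a median of -0.057, against a median of 0.010 and 51.6% above 0 over all genes. This balance rested on single clones. Without CFIm25 KO clone 3 the median was 0.0088 with 20 of 41 genes below 0, and without clone 2 it was -0.11 with 31 below 0. The groups did not overlap in 11 genes (26.8%), 2 of them higher and 9 lower in CFIm25 KO, where 24.5% of all genes tested had groups that did not overlap, so that the share is near that of the whole table.

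The CFIm25 KO clones differed from each other in these genes. Clone 2 was the highest of the 3 in 27 of 41 genes (65.9%), against 34.0% of all genes, and clone 3 was the lowest in 19 (46.3%), against 37% of all genes. Summed over the 41 genes, clones 1 to 3 held 3588, 4016 and 3392 CPM, and the controls 3646 and 3816 CPM. The summed level of clone 2 was thus above both controls and those of clones 1 and 3 below both, and MCM3 alone held 825.0, 1035 and 773.8 CPM of these sums in clones 1 to 3. Clone 2 was also the clone with high SIX3 and OTX2, though not the only one with high ZIC2 and not the highest in NES, and their part in this order was not tested. Genes are not independent replicates of a clone, and no test was made of this order.

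**Figure D2:**
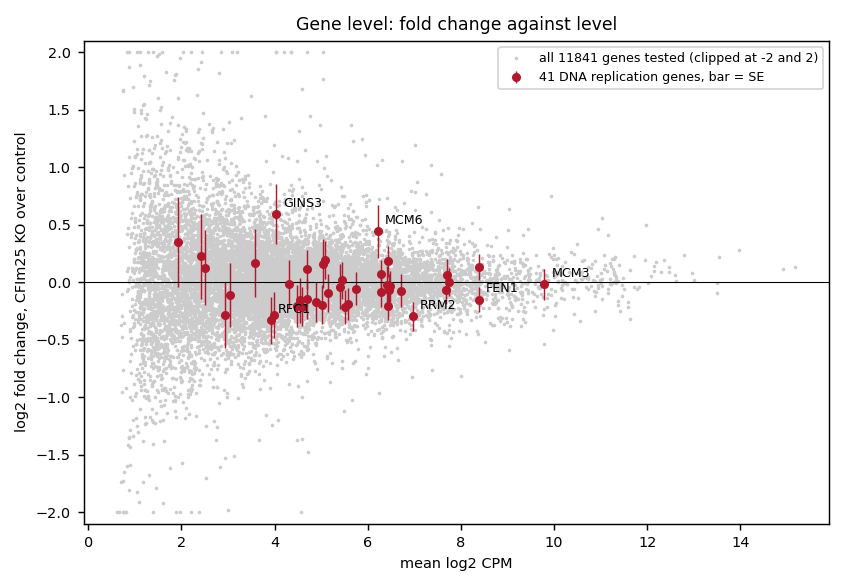
The vertical axis gives the log2 fold change of CFIm25 KO over control and the horizontal axis the mean log2 CPM, with grey points for all 11841 genes tested (clipped at -2 and 2) and red points with SE bars for the 41 replication genes. The replication genes lie between -0.33 and 0.59, and the widest bars belong to the genes of low level.

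The MCM ring, which unwinds DNA ahead of the fork, had 3 members above 0 and 3 below, with a median of 0.024. A 3'-end kit gives about the same number of tags per transcript whatever its length, so CPM values are compared between genes without dividing by length. MCM3 was the highest of all replication genes, with 825.0, 1035 and 773.8 CPM in CFIm25 KO and 850.9 and 928.0 CPM in control (log2 fold change -0.02, SE 0.135, adjusted p = 0.991). MCM7 had a mean of 347.3 ± 22.3 CPM in CFIm25 KO (SD, n = 3) and 317.2 ± 0.585 in control (SD, n = 2), and its groups did not overlap (0.13, SE 0.112, adjusted p = 0.868). MCM2 and MCM5 averaged 200.6 and 210.2 CPM in CFIm25 KO, and 209.8 and 200.9 CPM in control, and these 2 neighbours in level did not differ beyond their spread. MCM4 averaged 76.2 CPM in CFIm25 KO and 81.0 CPM in control.

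MCM6, another subunit of the ring, had the second largest positive fold change. It had 84.2, 103.6 and 60.5 CPM in CFIm25 KO, against 51.9 and 70.2 CPM in control (log2 fold change 0.44, SE 0.233, adjusted p = 0.776). Clones 1 and 2 lay above both controls and clone 3 between them. The highest CFIm25 KO clone was 1.71 times the lowest, among the wider spreads of the abundant replication genes.

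Of the helicase partners, 1 lay above 0 and 5 below (median -0.084). GINS2 was the most abundant, with 83.2, 102.5 and 69.2 CPM in CFIm25 KO and 82.3 and 90.3 CPM in control (-0.02, SE 0.164, adjusted p = 0.991). GINS3 had 15.7, 23.3 and 16.5 CPM in CFIm25 KO, against 9.59 and 14.9 CPM in control. All 3 CFIm25 KO clones lay above both controls, clone 1 by little (log2 fold change 0.59, SE 0.258, adjusted p = 0.669). GINS4, of the same 4-part complex that holds the helicase to the fork, lay on the other side, with 13.2, 15.1 and 14.9 CPM in CFIm25 KO and 15.8 and 19.2 CPM in control (-0.29, SE 0.201, adjusted p = 0.833). GINS1 (53.0 ± 3.78 CPM in CFIm25 KO, 55.1 ± 1.83 in control), CDC45 (27.8 ± 3.23 and 31.5 ± 3.22) and MCM10 (7.68 ± 1.29 and 8.32 ± 1.5) overlapped between the groups. MCM10 supports the activated helicase and was the least abundant of these partners.

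The 8 origin loading genes all lay within 0.25 of 0, 2 above and 6 below (median -0.055). CDC6, which loads the MCM ring together with ORC, had 102.1, 115.2 and 90.3 CPM in CFIm25 KO and 100.7 and 115.3 CPM in control (-0.07, SE 0.140, adjusted p = 0.951). CDT1, the partner that brings MCM to the origin, had 95.7, 95.4 and 79.6 CPM in CFIm25 KO and 82.3 and 77.1 CPM in control (0.18, SE 0.137, adjusted p = 0.847). Clones 1 and 2 were above both controls and clone 3 was between them, as for MCM6. ORC2 had 45.4, 46.2 and 43.4 CPM in CFIm25 KO, against 50.2 and 52.5 CPM in control (-0.19, SE 0.141, adjusted p = 0.844). Among the other ORC subunits, ORC6 averaged 88.0 CPM in CFIm25 KO and 90.3 in control, ORC3 22.1 and 24.7, ORC4 20.8 and 24.0, ORC1 19.3 and 19.5, and ORC5 5.53 and 5.05. The subunits of this complex thus spanned a wide range of RNA levels in both groups.

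The 9 genes of primase and polymerases lay 5 above 0 and 4 below (median 0.016). POLD2, a subunit of the lagging strand polymerase delta, had 200.3, 234.3 and 205.9 CPM in CFIm25 KO and 199.7 and 227.4 CPM in control, and its means were 213.5 CPM in both groups. POLE, the catalytic subunit of the leading strand polymerase epsilon, had 34.1, 38.5 and 33.0 CPM in CFIm25 KO and 33.4 and 28.2 CPM in control (0.19, SE 0.166, adjusted p = 0.865). POLA2, a subunit of polymerase alpha, had 21.5, 22.8 and 22.3 CPM in CFIm25 KO, against 26.3 and 25.2 CPM in control (-0.21, SE 0.169, adjusted p = 0.854). POLD1 averaged 43.2 CPM in CFIm25 KO and 42.8 in control, POLA1 41.6 and 42.9, and POLD3 33.9 and 30.4. The primase subunits PRIM1 (6.79 CPM in CFIm25 KO, 8.22 in control) and PRIM2 (5.34 and 4.53), and POLE2 (3.79 and 2.95), were below 10 CPM. At that depth their SE was 0.287 to 0.395. Fold changes as small as those of the abundant genes, none of which was called, could not be detected here. PRIM2 has near-identical copies in the genome, so its counts are uncertain.

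Of the clamp and its loaders, 2 lay above 0 and 4 below (median -0.17). PCNA, the ring that tethers polymerases to DNA, had 82.7, 77.4 and 78.6 CPM in CFIm25 KO and 79.2 and 72.8 CPM in control (0.07, SE 0.129, adjusted p = 0.953). RFC1, the large subunit of the loader that opens PCNA, had 12.9, 14.3 and 13.3 CPM in CFIm25 KO, against 15.6 and 18.4 CPM in control, and had the lowest fold change of the 41 genes (-0.33, SE 0.201, adjusted p = 0.806). RFC5 had 43.1, 45.9 and 39.6 CPM in CFIm25 KO, against 49.8 and 49.7 CPM in control (-0.21, SE 0.146, adjusted p = 0.831). The groups of RFC1 and RFC5 did not overlap. RFC2 averaged 30.3 CPM in CFIm25 KO and 34.7 in control, RFC3 26.6 and 24.6, and RFC4 24.4 and 27.0.

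FEN1, the nuclease that removes the flap of an Okazaki fragment, had 304.1, 326.1 and 329.9 CPM in CFIm25 KO, against 346.6 and 364.6 CPM in control (-0.15, SE 0.109, adjusted p = 0.840). Its groups did not overlap although it was not called. LIG1, the ligase that seals the nick, was far less abundant at 12.4, 15.9 and 7.64 CPM in CFIm25 KO and 10.2 and 11.3 CPM in control. The CFIm25 KO clones of LIG1 differed by up to 2.08 times and enclosed both controls.

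All 4 genes of nucleotide supply lay below 0 (median -0.15), and 1 of them, RRM2, had an unadjusted p under 0.05. RRM2, the small subunit of ribonucleotide reductase whose level is cell cycle regulated, had 106.6, 124.8 and 111.0 CPM in CFIm25 KO, against 132.8 and 147.5 CPM in control (log2 fold change -0.30, SE 0.127, adjusted p = 0.668). TYMS, which makes thymidylate, had 82.3, 80.2 and 80.4 CPM in CFIm25 KO, against 97.8 and 88.8 CPM in control (-0.20, SE 0.125, adjusted p = 0.811). All 3 CFIm25 KO clones were below both controls for RRM2 and for TYMS. TYMS overlaps ENOSF1 on the other strand, and the table gives a strand for each site. RRM1 averaged 86.2 CPM in CFIm25 KO and 90.7 in control, and TK1 34.4 and 36.8, with overlapping groups.

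Next, the places where these transcripts end were examined, since CFIm25 acts on poly(A) site choice. Of the 41 genes, 13 had 1 site and 28 had more (68.3%, against 46.5% of all genes). The annotation in the table put 77 of the 97 sites in 3' UTRs, 13 in introns and 7 in exons, and 94.55% of the genes' reads ended at 3' UTR sites. The most used site held over 90% of the reads in 23 genes. It lay within 50 bases of the RefSeq gene end in 20, among them MCM2, MCM3, ORC1, PCNA and FEN1. Positions are given in GRCh38.

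**Figure D3:**
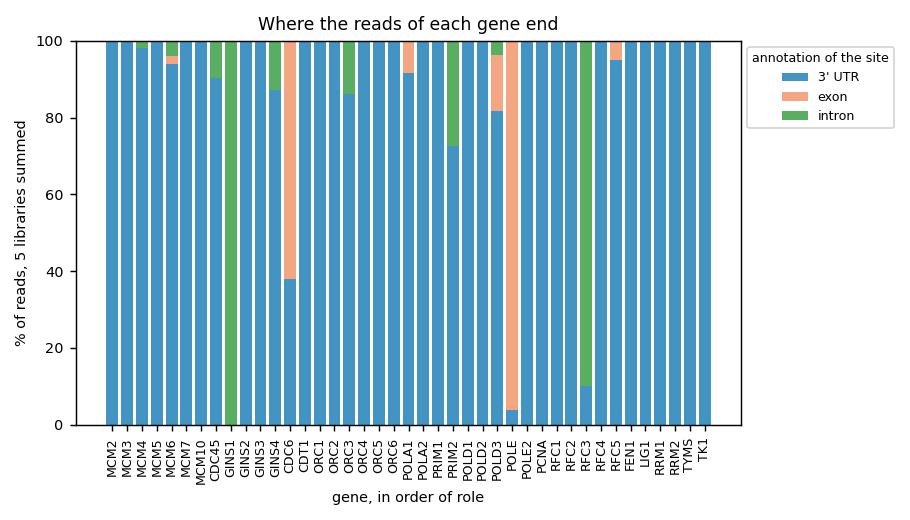
Bars give, for each of the 41 genes, the percentage of reads from all 5 libraries that ended at sites annotated as 3' UTR (blue), exon (orange) or intron (green). In CDC6, GINS1, POLE and RFC3 most reads ended at a site annotated as exon or intron.

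The main site was annotated outside the 3' UTR in 4 genes. GINS1 had only intron sites, the main one at chr20:25448559 with 93.3% of its reads and 4 bases before the RefSeq gene end, and it was the gene of largest intronic share. The main site of POLE (chr12:132623760, annotated as exon) lay 2 bases past the RefSeq gene end and held 96.2% of its reads. For GINS1 and POLE the annotation in the table thus differs from the RefSeq gene end. In CDC6 the exon site at chr17:40301979 held 62.0% of reads and lay 2678 bases before the RefSeq gene end. In RFC3 the intron site at chr13:33837497 held 72.8%, far upstream of the end of its longest model.

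For tandem sites the question was whether reads moved between the pair of most used 3' UTR sites of a gene. Such a pair could be tested in 14 of the 41 genes. In edgeR's test of the pairs 0 of 14 were called, where 0.152% of 3286 pairs were called, and 1 of 14 had an unadjusted p under 0.05, where 10.7% of all pairs had one. With limma on the log2 ratio of each library 1 of 14 was called, where 1.13% of all pairs were. The shift is a difference of log2 proximal-to-distal ratios, CFIm25 KO minus control, and a value below 0 means relatively more distal reads in CFIm25 KO. It was below 0 in 9 pairs and above 0 in 5 (median -0.080), against a median of -0.093 over all pairs. In 3 of 14 pairs (RRM2, RFC5 and CDC6) the distal shares showed no overlap between groups, where 30.6% of all pairs did not overlap.

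RRM2 had the smallest p of the 14 in both tests. Its 5 sites, all annotated as 3' UTR, lay between chr2:10129528 and chr2:10131413. The proximal site of the pair (chr2:10129798) held 437, 427 and 367 reads in CFIm25 KO, against 443 and 513 in control. The distal site (chr2:10131413), 1615 bases downstream, held 240, 231 and 127 reads in CFIm25 KO, against 123 and 116 in control. The distal share of the pair was 35.5%, 35.1% and 25.7% in CFIm25 KO, against 21.7% and 18.4% in control, so all 3 edited clones were above both controls, clone 3 by least.

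The shift of RRM2 was -0.93 (SE 0.251, adjusted p = 0.17 with edgeR), and -0.90 with limma (adjusted p = 0.0366). The call thus depends on the test. Without CFIm25 KO clone 3 the edgeR test also called it (-1.12, adjusted p = 0.0242). Leaving out either control gave adjusted p of 0.765 and 0.734, and leaving out clone 1 or clone 2 gave 0.260 and 0.378.

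**Figure D4:**
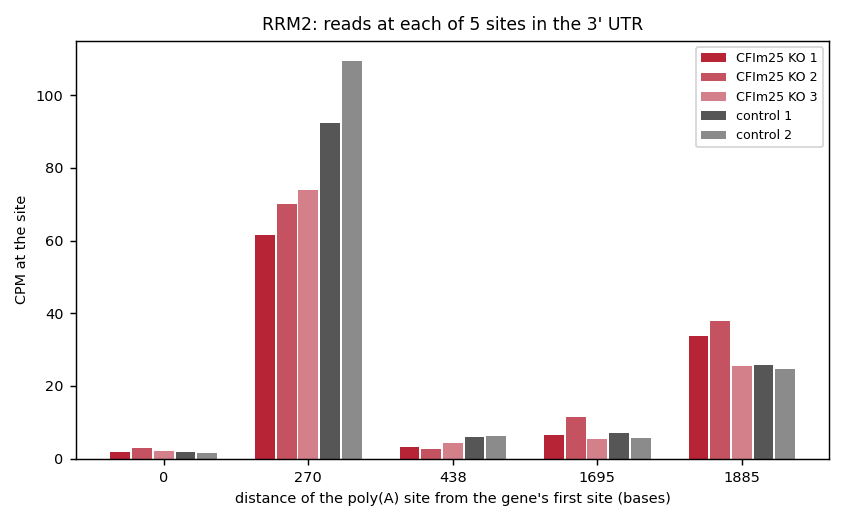
Bars give the CPM at each of the 5 poly(A) sites of RRM2 in the 3 CFIm25 KO clones (red) and the 2 control libraries (grey), and the horizontal axis the distance of the site from the first one in bases. At 270 bases all 3 CFIm25 KO clones lie below both controls, and at 1885 bases clones 1 and 2 lie above both.

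Set on the scale of library size, the proximal site of RRM2 held 61.4, 70.0 and 73.8 CPM in CFIm25 KO, against 92.3 and 109.5 CPM in control. The distal site held 33.7, 37.9 and 25.5 CPM in CFIm25 KO, against 25.6 and 24.8 CPM in control. The level of the proximal site did not overlap between the groups, whereas that of the distal site did. Over all 5 sites, the last 2 together took 37.8%, 39.6% and 27.9% of RRM2 reads in CFIm25 KO, against 24.6% and 20.5% in control. The means were 35.1% ± 6.30 in CFIm25 KO (SD, n = 3) and 22.6% ± 2.90 in control (SD, n = 2), with an exact two-sided permutation p of 0.2, where the smallest p that 10 regroupings allow is 0.1. This grouping of sites was chosen after their values were seen.

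The other pairs gave no call in any test run. RFC5 had a distal share of 62.7%, 65.2% and 62.9% in CFIm25 KO, against 61.8% and 52.6% in control (shift -0.39, SE 0.266, adjusted p = 0.620). CDC6 ran the other way within its pair, with 31.0%, 35.1% and 26.1% in CFIm25 KO, against 40.0% and 35.5% in control (0.41, SE 0.333, adjusted p = 0.727). This pair leaves out the most used site of CDC6, which lies upstream of both and is annotated as exon. That site took 60.8%, 59.46% and 61.02% of CDC6 reads in CFIm25 KO, against 62.73% and 66.85% in control. Over all CDC6 sites, the distal site of the pair took 11.42%, 13.51% and 8.91% in CFIm25 KO, against 14.08% and 11.11% in control. The proximal site of the pair took 25.45%, 25.04% and 25.17% in CFIm25 KO, against 21.12% and 20.19% in control. Over all CDC6 sites, the groups thus overlapped at the distal site and did not overlap at the proximal and exon sites. None of these sites was called when set against the other sites of the gene. GINS3 had a distal share of 39.3%, 50% and 50% in CFIm25 KO, against 43.5% and 37.1% in control (-0.42, SE 0.456, adjusted p = 0.813). The groups overlapped in GINS3 and came close together in RFC5 and CDC6. TYMS, which ends mostly at its proximal site, had a distal share of 9.68%, 16.9% and 12.4% in CFIm25 KO, against 11.2% and 12.1% in control (-0.18, SE 0.285, adjusted p = 0.878). The remaining 9 pairs (RFC2, RFC1, POLA2, ORC4, CDT1, GINS2, ORC2, GINS4 and MCM4) had shifts between -0.24 and 0.13.

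**Figure D5:**
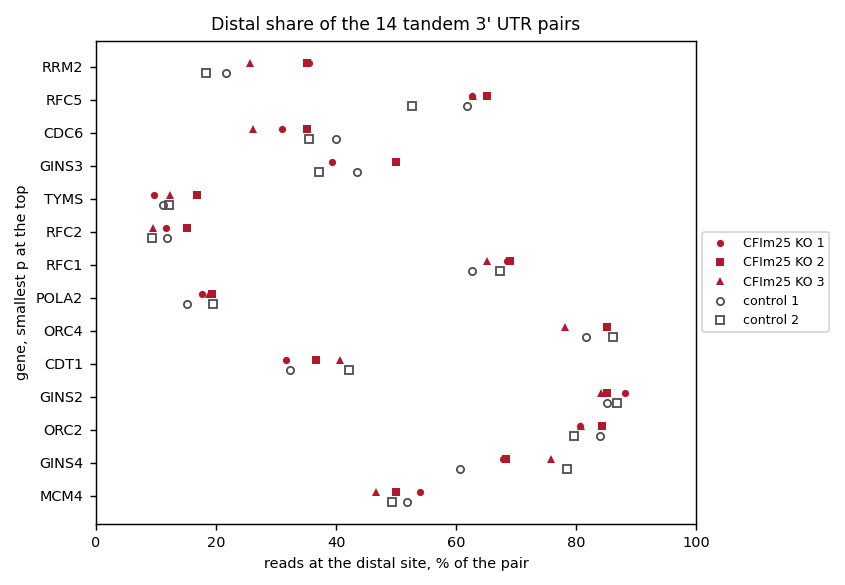
The horizontal axis gives the percentage of a pair's reads at its distal site for the 14 genes with a tandem pair, with the smallest p at the top. Filled red symbols are the 3 CFIm25 KO clones and open grey symbols the 2 control libraries. In RRM2, RFC5 and CDC6 the groups do not overlap, where 30.6% of all 3286 pairs do not.

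When each site was set against the other sites of its gene, 58 sites of 23 of the genes could be tested. The edgeR test called 0 of 58, where 0.043% of 13949 sites were called, and 3 of 58 had an unadjusted p under 0.05, where 3.25% of all sites had one. The limma test called 0 of them as well. These 3 were the most distal site of RRM2 (0.67 on the log2 scale relative to the gene), the second site of MCM4 (-1.23) and the last site of ORC2 (0.89), each with an adjusted p of 1.0. The MCM4 site at chr8:47970809 held only 1, 11 and 9 reads in CFIm25 KO, against 17 and 12 in control. The ORC2 site at chr2:200908980 took 12.1%, 12.8% and 16.7% of the gene's reads in CFIm25 KO, against 7.05% and 7.72% in control, from 36 to 39 reads and 17 and 19 reads.

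The next 5 sites by p had unadjusted p of 0.0963 to 0.217. Site 4 of RRM2 took 6.19%, 9.20% and 4.89% of the gene's reads in CFIm25 KO, against 5.34% and 3.76% in control, and site 3 took 3.03%, 2.1% and 3.80%, against 4.55% and 4.20%. The first site of ORC2 took 3.10%, 5.32% and 5.09% in CFIm25 KO, against 2.90% and 2.03% in control. In ORC2 the first and last sites thus took larger shares in all 3 CFIm25 KO clones, from few reads. The sites next to the main one did not share this. Site 2 of ORC2 took 14.86%, 12.06% and 13.43% in CFIm25 KO, against 13.28% and 17.07% in control. Site 4 of ORC2 took 7.74%, 5.32% and 8.33%, against 7.05% and 6.5%, so both overlapped between the groups. The other 2 were the intron sites of CDC45 and ORC3.

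Intronic against 3' UTR usage could be tested in 5 genes. The edgeR test called 0 of 5, where 0.596% of 1006 genes were called, and 0 of 5 had an unadjusted p under 0.05, where 10.5% of all genes had one, and limma also called 0. CDC45 had an intronic share of 8.04%, 6.88% and 9.02% in CFIm25 KO, against 11.4% and 13.9% in control (-0.77, SE 0.419, adjusted p = 0.546). Its 3 edited clones lay below both controls, from 11 to 16 intronic reads in CFIm25 KO and 16 and 22 in control. ORC3 had 14%, 22.2% and 12.8% in CFIm25 KO, against 13.6% and 6.90% in control (0.72, SE 0.480, adjusted p = 0.657). RFC3, MCM6 and GINS4 had shifts of -0.58, -0.25 and 0.03.

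The wider replication pathway gave no call at the gene level either. Of 58 further genes of licensing and firing, fork factors, nucleotide supply, chromatin assembly and S phase control, 55 had a site, and 0 of 55 were called with edgeR (0.0591% of all genes) or DESeq2 (0.213% of all genes). The fold change was above 0 in 21 and below 0 in 34 (median -0.050), and 4 of 55 (7.27%) had an unadjusted p under 0.05 with edgeR, against 7.13% of all genes, so that the share is near that of the whole table. With DESeq2 0 of 55 had one. The 4 were fork factors. POLE4 and POLE3 are the histone fold subunits that pair with each other in polymerase epsilon. POLE4 had 32.2, 40.3 and 33.4 CPM in CFIm25 KO, against 24.0 and 28.0 CPM in control (0.44, SE 0.176, adjusted p = 0.639), and POLE3 had 4.21, 2.46 and 3.42 CPM in CFIm25 KO, against 7.71 and 5.55 CPM in control (-0.97, SE 0.352, adjusted p = 0.608). The fold changes of these partners thus had opposite signs, neither past the adjusted threshold. POLE3 rested on 15 to 37 reads per library and had no value when only 3' UTR sites were counted. Whether its counts give the level of its full transcript was not tested. WDHD1, which links the helicase to polymerase alpha, had 16.4, 21.5 and 14.1 CPM in CFIm25 KO, against 27.1 and 23.5 CPM in control (-0.54, SE 0.210, adjusted p = 0.629). DSCC1, part of an alternative PCNA loader, had 11, 8.36 and 9.25 CPM in CFIm25 KO, against 14.6 and 13.0 CPM in control (-0.53, SE 0.231, adjusted p = 0.669).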

How the data were processed

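The authors prepared QuantSeq Rev libraries and mapped the reverse complement of each read with Bowtie2. They used read ends as poly(A) junctions, discarded those from internal priming, and merged neighbouring ends into sites. The deposited table gives raw counts per site and library, RPM values that the authors divided by a library total, and their sum as a deposited score, for sites with a summed RPM of at least 5. The authors' own fold ratio and p-value columns were deposited too and were not used. The labels name hg19, but 98.85% of 22984 sites lay within 5000 bases of their gene by GRCh38 positions, and only 12.46% of 24707 by GRCh37 positions. No genome of that build was used here, so no sequence around poly(A) sites is given.

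Counts of all sites were summed per gene identifier and tested in all 5 libraries with edgeR 4.0.16 in R 4.3.3 (filterByExpr, TMM, two-sided robust quasi-likelihood F test without covariates, Benjamini-Hochberg over the whole table, threshold 0.05). The SE was the log2 fold change over the root of F. RPM served to rank sites. The pair was the 3' UTR sites of highest mean RPM, each with at least 5% of the pair, tested with diffSpliceDGE, as were single sites and summed intronic against 3' UTR counts. The edgeR gene, pair and site tests and limma on ratios were run on counts simulated with a fixed dispersion. Differences between clones were not simulated, so those runs do not show how the tests behave with clones that differ. Alternatives were DESeq2 1.42.0 (test and size factors), library totals, no filter, limma 3.58.1 on log2 ratios (pseudocount 1 read), 3' UTR sites only, 10% as the smallest share, the outermost sites, a replicate block and leaving out each library. All members were named, with full values for those of smallest p, highest level by role and extreme fold change. The members and lists were chosen with earlier results of these data known. The study took its mock controls from randomly picked clones given the empty vector. The labels do not say whether each control library came from a separate one of these. The p-values measure the spread between these libraries. The tables were handled with Python 3.11.15.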

Additional observations from a re-analysis of the deposited data

How the results depend on the processing

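No replication gene was called at the gene level under any alternative except the replicate block, which called 1 (MCM6, 0.63 on the log2 scale). The labels do not say that samples with the same number were paired. Deviations of same-numbered samples correlated weakly (0.062 and 0.038). With 2 control libraries, whose deviations mirror each other, this cannot exclude a shared batch. As no pairing is stated, the block fit is given here only. It called 634 genes, 25 pairs, 27 sites and 15 intronic genes over the whole table, and 1 replication gene pair (RRM2). It put the median of the replication genes at 0.010. Replicate number 3 occurs only in CFIm25 KO, so clone 3 adds nothing to the group difference in the block fit. The block is therefore not a separate check from leaving out clone 3, where MCM6 was 0.62. The main tests called 7, 5, 6 and 6. Gene calls were 11 with library totals and 27 with DESeq2, and 2 to 123 when 1 library was left out. Pair calls were 3 with library totals, 37 with limma (1 of them RRM2), 3 with the outermost sites, and 4 to 25 (0 to 1 among replication genes) when 1 library was left out. Site calls were 65 with limma and 10 to 22 when 1 library was left out, and intronic calls 3 with limma and 0 to 22. The highest counts with 1 library left out came without CFIm25 KO replicate 3 for genes, pairs and intronic usage. The cause was not tested. Genes near 0 changed sign. MCM3 was 0.057 with the block and -0.15 to 0.064 when 1 library was left out, GINS2 0.10 and -0.18 to 0.10, and CDC6 0.010 and -0.17 to 0.026, with 0.10 from 3' UTR sites only. POLD2 was 0.0049 with DESeq2 size factors, 0.0036 with the DESeq2 test, 0.024 with the block and -0.091 to 0.095 when 1 library was left out. The TYMS pair ran from -0.39 to 0.094. Of 354 values of 34 single genes and sites under the alternatives, 332 kept direction and side of the threshold. Reads carry no molecular identifiers, and 2 control libraries limit every test.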
